A study of Mus musculus with 6 samples.

Results

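The 9 genes described here, Cd2, Cd6, Thy1, Ptpn22, Ptpn6, Cblb, Ubash3a, Sh2d2a and Themis, encode modulators of signaling through the T cell receptor (TCR). They were listed by symbol, with earlier results of these data known, and each matched 1 of the 28773 gene IDs in the expression files. RNA had been sequenced from CD8+ T cells purified with a magnetic kit from mouse spleens on day 35. All 6 samples came from tumor-bearing female mice treated by microwave ablation (MWA), a heat-based local tumor therapy. The 3 MWA+PBS samples (replicates 1 to 3) came from mice then injected with the PBS vehicle, and the 3 MWA+2DG samples (replicates 4 to 6) from mice injected with 2-deoxy-D-glucose (2DG), a glucose analogue that inhibits glycolysis. The study's methods give an age of 6 weeks for its wild-type mice, apart from an older control group for a late time point. Mouse strain and tumor line of these samples, and whether a sample was 1 mouse or a pool, were not stated in the sources consulted here, and p-values therefore measure only the spread between these samples. Because 2DG was injected into the mice, the comparison is of treated mice rather than of T cells exposed on their own. In the study's treatment scheme the injections ended before day 35, and no 2DG was detected in plasma by then.

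A T cell responds when the TCR meets its antigen and the kinase Lck phosphorylates the receptor complex. The response is tuned at several levels, by coreceptors at the membrane, by phosphatases that remove phosphate groups from the kinases and adaptors, by ubiquitin ligases that mark signaling proteins, and by adaptors that hold these enzymes in place. The 9 genes cover all of these levels, with 3 surface molecules (Cd2, Cd6, Thy1), 3 members of phosphatase families (Ptpn22, Ptpn6, Ubash3a), 1 ubiquitin ligase (Cblb) and 2 adaptors (Sh2d2a, Themis).

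What makes Ptpn22 and Ptpn6 tyrosine phosphatases is a short stretch around the catalytic cysteine. It was read from the longest complete coding sequence annotated for each gene (GENCODE M21). The letters searched were the codons for His, Cys, any residue, Ala, Gly, any residue, Gly, Arg, Thr or Ser, and Gly. The codons in capitals encode the cysteine, which attacks the phosphate, and the arginine, which binds it.
Ptpn22: cacTGCagtgccggctgcggaAGGacaggt
Ptpn6: catTGCagcgctggcatcggcCGCacgggc
The Ptpn22 stretch spans coding bases 676 to 705, with the cysteine at codon 227 and the arginine at codon 233 of 802. In Ptpn6 it spans coding bases 1360 to 1389, with the cysteine at codon 455 and the arginine at codon 461 of 597. Of the 30 bases, 20 were identical between both genes, and 8 of the 10 codons differed. The stretch was present in 2 of the 9 genes and in 12 of 16 other genes on a list of phosphatases and their partners. It was not found in Ubash3a, whose phosphatase-like domain belongs to the histidine phosphatase family.

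Among the 9 genes, 5 rose in the MWA+2DG group and 0 fell at a Benjamini-Hochberg adjusted p under 0.05 (limma on log2(FPKM + 1), two-sided, adjusted over all genes tested). Of the 12444 genes tested, 22.3% were called higher and 17.1% lower. With each sample scaled to 14 T lineage genes instead, 1 of the 9 was called higher (Cd2) and 4 lower, as detailed further on. On that scale 639 of the 12444 genes tested were called higher and 7462 lower. The risers were the 3 surface molecules and the 2 adaptors, whereas the 3 phosphatase family genes and Cblb were not called in either direction. FPKM, the unit throughout, normalizes fragment counts to transcript length and library size. At an unadjusted p under 0.05, 6 of the 9 were higher and 0 lower, against 28.1% higher and 20.5% lower among all genes tested. The median log2 fold change was 0.28 over the 9 genes and 0.05 over all genes tested. The groups of 3 samples did not overlap for 6 of the 9 genes, each higher with 2DG, against 30.2% of all genes tested, or 52.1% in either direction.

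**Figure D1:**
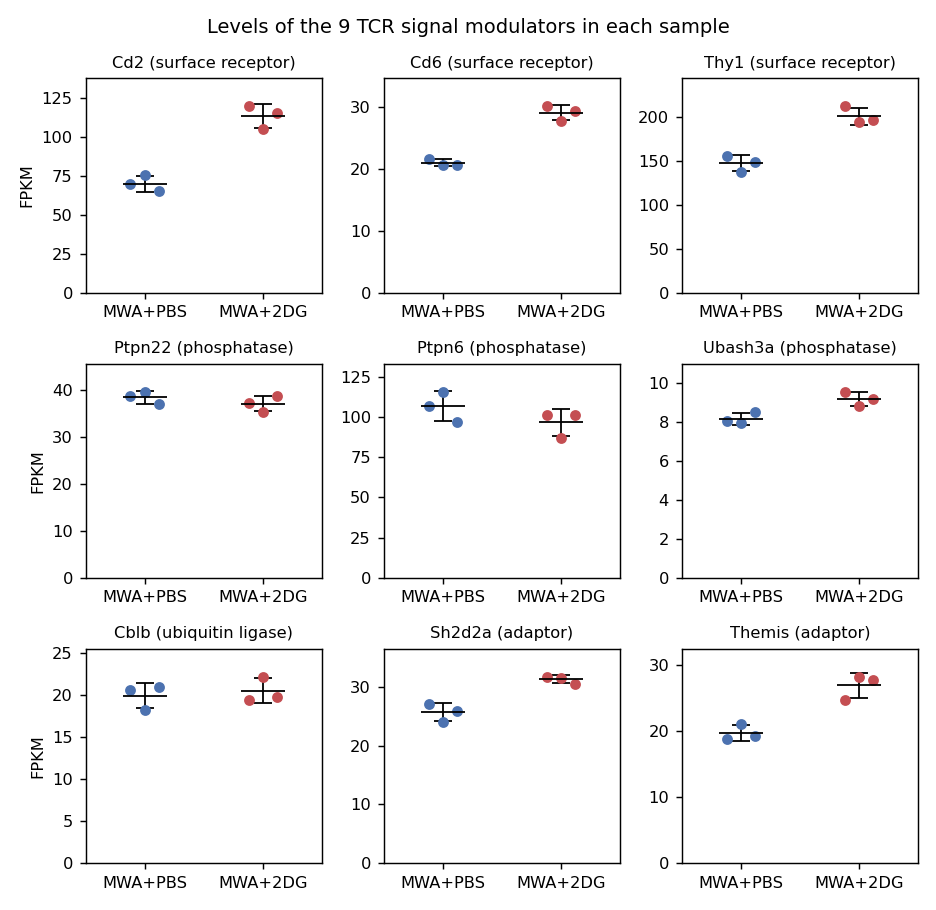
FPKM of each of the 9 genes in the 3 MWA+PBS samples (blue) and the 3 MWA+2DG samples (red). Each point is 1 sample, long bars are means and short bars SD, and every axis starts at 0. Cd2, Cd6, Thy1, Ubash3a, Sh2d2a and Themis showed no overlap between the groups, and Ptpn22, Ptpn6 and Cblb did.

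Cd2 encodes an adhesion receptor that binds CD48 on other cells and adds to TCR signaling. Its FPKM was 69.8, 75.3 and 65.1 in the MWA+PBS samples and 119.8, 105 and 116 in the MWA+2DG samples. All MWA+2DG samples lay above all MWA+PBS samples, and the gap was wide against the spread in either group. The mean rose 1.62-fold, from 70.1 ± 5.13 to 113.6 ± 7.58 (SD, n = 3 samples each), which is 0.69 ± 0.07 (SE) in log2 fold change at a limma adjusted p of 0.000345. This was the greatest log2 fold change of the 9 genes.

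Cd6, a scavenger receptor family protein that binds ALCAM and recruits signaling adaptors, had an FPKM of 21.6, 20.6 and 20.7 with PBS and 30.1, 27.7 and 29.3 with 2DG. The samples within each group differed little, and the groups were clearly apart. Cd6 rose 1.39-fold, from 20.9 ± 0.58 to 29.0 ± 1.19 (SD, n = 3), or 0.45 ± 0.05 (SE) on the log2 scale, at a limma adjusted p of 0.000551.

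Thy1, which encodes a glycolipid-anchored glycoprotein of the mouse T cell surface, was the most abundant of the 9 transcripts. Its FPKM was 156, 138 and 149.5 in MWA+PBS and 212, 195 and 197 in MWA+2DG. The lowest 2DG sample was again above the highest PBS sample. The mean rose 1.36-fold, from 148 ± 9.4 to 201 ± 9.68 (SD, n = 3), or 0.44 ± 0.07 (SE) on the log2 scale, at a limma adjusted p of 0.00171. Neither Cd6 nor Thy1 was called after scaling to the T lineage genes, at 0.04 and 0.02 (limma adjusted p = 0.5 and 0.825).

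Of the phosphatase family genes, Ptpn22 encodes PEP, which together with the kinase Csk acts on Lck and ZAP70. Its FPKM was 38.7, 39.7 and 37.0 with PBS and 37.2, 35.4 and 38.7 with 2DG. The lowest sample belonged to 2DG and the highest to PBS, and the ranges overlapped. The means were 38.5 ± 1.36 and 37.1 ± 1.65 (SD, n = 3), and the log2 fold change of -0.05 had a 95% interval from -0.18 to 0.08 (limma adjusted p = 0.506).

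Ptpn6 encodes SHP-1, an SH2 domain phosphatase expressed across blood cell types, and was the second most abundant of the 9 transcripts in the MWA+PBS group. The samples read 107, 116 and 97.2 FPKM with PBS and 101, 86.9 and 102 with 2DG. Here too the lowest sample was a 2DG sample and the highest a PBS sample, with overlap between them. The means were 107 ± 9.38 and 96.7 ± 8.42 (SD, n = 3). The log2 fold change of -0.14 had a 95% interval from -0.35 to 0.06 (limma adjusted p = 0.236). Exons of the antisense gene Gm20531 overlap those of Ptpn6, and whether the authors' quantification used the strand was not given.

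Ubash3a encodes a suppressor of TCR signaling with a ubiquitin-binding domain and a phosphatase-like domain of low activity. Its level was the lowest of the 9 genes, at 8.05, 7.94 and 8.52 FPKM with PBS and 9.58, 8.82 and 9.19 with 2DG. The groups did not overlap, although the gap between the nearest samples was narrow. The means were 8.17 ± 0.308 and 9.20 ± 0.38 (SD, n = 3). The log2 fold change of 0.15 had a 95% interval from 0.01 to 0.29 and missed the threshold after adjustment (limma adjusted p = 0.0786).

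Cblb encodes an E3 ubiquitin ligase that raises the threshold for T cell activation. Its FPKM was 20.56, 18.24 and 20.95 in MWA+PBS and 19.5, 22.2 and 19.8 in MWA+2DG, so the groups were interleaved. The means were 19.9 ± 1.47 and 20.5 ± 1.48 (SD, n = 3). The 95% interval of its log2 fold change of 0.04 ran from -0.14 to 0.22 (limma adjusted p = 0.713), and the sign turned with the sample left out, from -0.02 without MWA+PBS replicate 2 to 0.08.

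Both adaptors rose as deposited, and neither was called after scaling to the T lineage genes, where Sh2d2a was at -0.14 and Themis at 0.02 (limma adjusted p = 0.11 and 0.826). Sh2d2a encodes TSAd, an SH2 domain adaptor that binds Lck. Its FPKM was 27.12, 24.04 and 25.92 with PBS and 31.8, 31.6 and 30.5 with 2DG, without overlap. The rise was the smallest of the 5 called, 1.22-fold, from 25.7 ± 1.55 to 31.3 ± 0.694 (SD, n = 3), or 0.28 ± 0.06 (SE) on the log2 scale, at a limma adjusted p of 0.00847.

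Themis encodes an adaptor that binds Grb2 and SHP-1 and is best known for its part in thymocyte selection. The samples read 18.72, 21.04 and 19.3 FPKM with PBS and 24.7, 28.3 and 27.8 with 2DG. Every 2DG sample was above every PBS sample. The mean rose 1.37-fold, from 19.7 ± 1.21 to 26.9 ± 1.93 (SD, n = 3), or 0.43 ± 0.07 (SE) on the log2 scale, at a limma adjusted p of 0.0028. Exons of an antisense pseudogene, 4930519F09Rik, overlap those of Themis.

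Under the thresholds in the study's methods, P under 0.05 and a log fold change of more than 0.25 either way, whose base is not stated and was taken as 2, the same 5 genes passed, against 38.2% of all genes tested. Sh2d2a was closest to the fold threshold and fell below it, at 0.23, without MWA+PBS replicate 2, with median ratio scaling and with arrayWeights, each of which left 4 genes past the thresholds. After scaling to 14 T lineage genes, described further on, 4 genes passed as well, but these were Cd2 (0.27), Ptpn6 (-0.57), Ptpn22 (-0.47) and Cblb (-0.37).

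Ordered by FPKM, which is scaled by transcript length, the MWA+PBS levels ran Thy1, Ptpn6, Cd2, Ptpn22, Sh2d2a, Cd6, Cblb, Themis and Ubash3a. The ranges of Cd6 and Cblb overlapped, and so did those of Cblb and Themis, while all other neighbours were apart. In MWA+2DG the order was Thy1, Cd2, Ptpn6, Ptpn22, Sh2d2a, Cd6, Themis, Cblb and Ubash3a, and among neighbours the ranges of Cd6 and Themis overlapped. Cd2 and Ptpn6 had changed places. In MWA+PBS the highest Cd2 sample (75.3) was below the lowest Ptpn6 sample (97.2), and in MWA+2DG the lowest Cd2 sample (105) was above the highest Ptpn6 sample (102).

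Ratios within a sample do not depend on how that sample was scaled, so each of the 5 genes called higher was divided by each of the 4 not called. These pairs were formed after the values were seen. The ratio was higher in every MWA+2DG sample than in every MWA+PBS sample for 18 of 20 pairs, and the exceptions were Sh2d2a over Ubash3a and Themis over Ubash3a. Over all pairs of a gene called higher and a gene not called, 67.4% did not overlap. The difference in mean log2 ratio ran from 0.12 for Sh2d2a over Ubash3a to 0.84 for Cd2 over Ptpn6. The ratios are given as descriptions, without a test.

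The Cd2 to Ptpn6 ratio was 0.651, 0.65 and 0.67 in MWA+PBS and 1.18, 1.21 and 1.14 in MWA+2DG. In each MWA+PBS sample the phosphatase transcript outnumbered that of the adhesion receptor per unit length, and in each MWA+2DG sample the reverse held. For Themis over Ptpn6, an adaptor and the phosphatase it binds, the ratio was 0.175, 0.182 and 0.199 with PBS and 0.243, 0.325 and 0.274 with 2DG. Sh2d2a over Ubash3a gave 3.37, 3.03 and 3.04 against 3.32, 3.58 and 3.32, and these ranges overlapped.

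**Figure D2:**
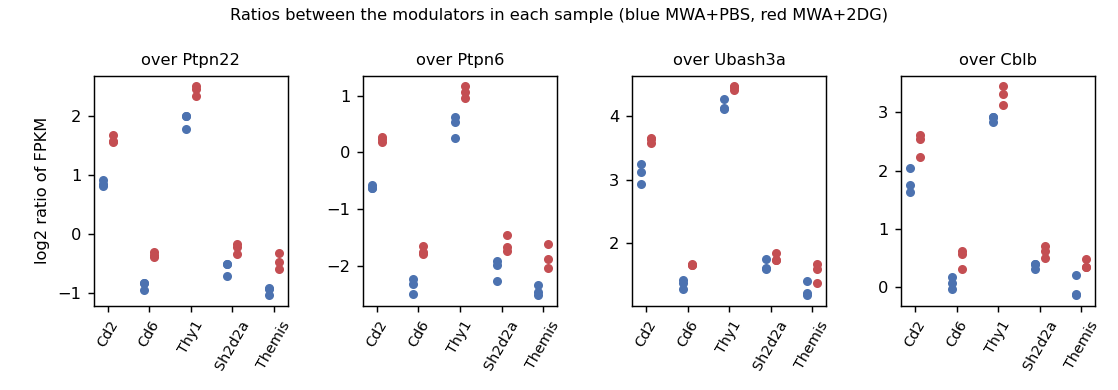
Log2 ratio of FPKM in each sample for the 5 genes called higher (horizontal axis) over Ptpn22, Ptpn6, Ubash3a and Cblb (panels), with MWA+PBS in blue and MWA+2DG in red. Each point is 1 sample. The groups were apart in 18 of 20 pairs, most widely for Cd2 over Ptpn6.

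The CD8+ T cell label was checked by the levels of Cd8a, Cd8b1 and Cd3e. Cd8a was at 226 to 239 FPKM in the PBS samples and 359 to 377 in the 2DG samples, Cd8b1 at 319.8 to 336 and 454 to 508, and Cd3e at 88.7 to 104 and 118 to 142. These transcripts were present in every sample, and higher with 2DG (log2 fold change 0.66, 0.55 and 0.38, limma adjusted p = 8.94e-05, 0.000443 and 0.0139). Of 14 T lineage reference genes, 13 rose and 0 fell, and their mean log2 difference was 0.43. In bulk samples, fewer cells of a type and less RNA per cell cannot be told apart. The levels of the 9 genes were therefore also set against the T lineage genes, by scaling each sample to the mean of the 14.

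After this scaling 1 of the 9 genes was called higher and 4 were called lower. Cd2 stayed higher, by 0.27 on the log2 scale (limma adjusted p = 0.00448). Cd6, Thy1 and Themis moved to 0.04, 0.02 and 0.02 and were no longer called (limma adjusted p = 0.5, 0.825 and 0.826). Sh2d2a turned to -0.14 and was not called either (limma adjusted p = 0.11).

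Relative to the same T lineage genes, the 4 remaining genes fell. Ptpn6 was at -0.57 and Ptpn22 at -0.47 on the log2 scale (limma adjusted p = 0.000251 and 0.000136). Cblb was at -0.37 and Ubash3a at -0.23, both turned in sign from the values as deposited (limma adjusted p = 0.00986 and 0.0169). The scaling moved the median of all genes by -0.36, and 639 genes were then called higher and 7462 lower, so a fall on this scale was common among all genes.

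**Figure D3:**
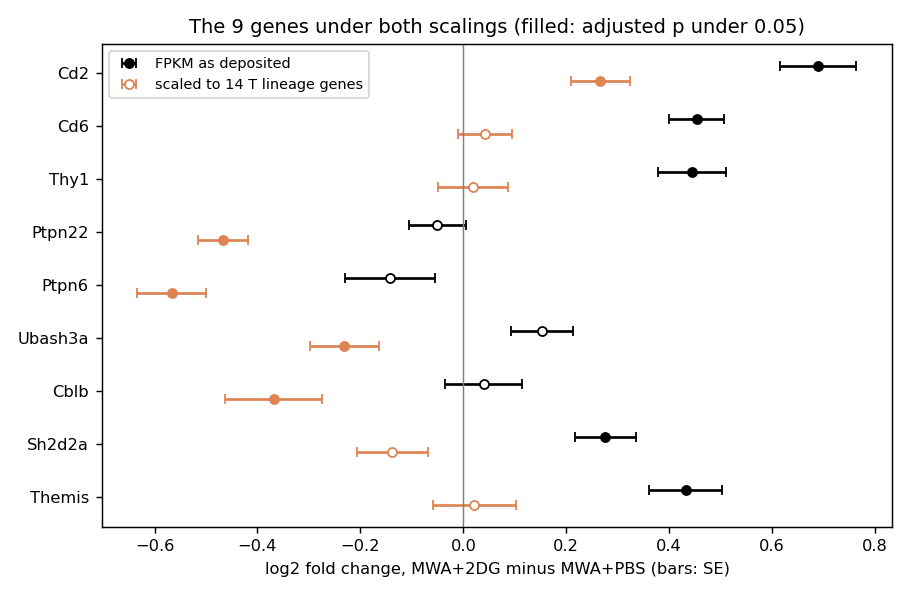
Log2 fold change (MWA+2DG minus MWA+PBS, bars are SE) of each of the 9 genes, as deposited (black) and after scaling to 14 T lineage genes (orange). Filled points had an adjusted p under 0.05. Cd2 stayed above 0 and called under both scalings, whereas Ubash3a, Cblb and Sh2d2a changed sign.

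Other cell types also differed between the groups. Summed FPKM of 10 neutrophil markers lay between 64.9 and 89.1 under PBS and between 1572 and 1749 under 2DG, with 9 of 10 genes higher. The highest of them, S100a9 and Ngp, were at 559 to 648 and 579.9 to 639 FPKM in the 2DG samples, above Cd8a and Cd8b1 in each of these samples, and at 17.4 to 29.3 and 23.2 to 31.7 in the PBS samples. Summed FPKM of 8 B cell markers went from between 10.4 and 11.6 to between 54.6 and 59.1, with 8 of 8 higher. Both lists were low in the PBS samples and high in all 2DG samples.

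Sums fell for the other marker lists. The 10 monocyte and macrophage markers summed to 737 to 799.8 FPKM with PBS and 297 to 331 with 2DG (1 higher, 9 lower), and 8 erythroid markers to 292 to 347 and 66.9 to 84.7 (8 lower). Of 4 CD4 T cell markers 3 were tested and 2 were lower, with sums of 8.96 to 9.72 and 6.45 to 7.03. Of 6 natural killer cell markers 5 were in the files and 1 was tested, which was lower, with sums of 7.91 to 8.55 and 6.12 to 6.44. Klra9 was listed at 0 in all MWA+PBS samples. Ngp and Klra9 were named after their values were seen. All 8 immediate early and heat shock genes fell, from sums of 752 to 802 FPKM to sums of 109 to 114.

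Ptpn6 is expressed by neutrophils, B cells and macrophages as well as by T cells, and Cd2 in mice by B cells and natural killer cells as well. The part of these cell types, and of the immediate early and heat shock genes, in the levels of the 9 genes was not tested.

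**Figure D4:**
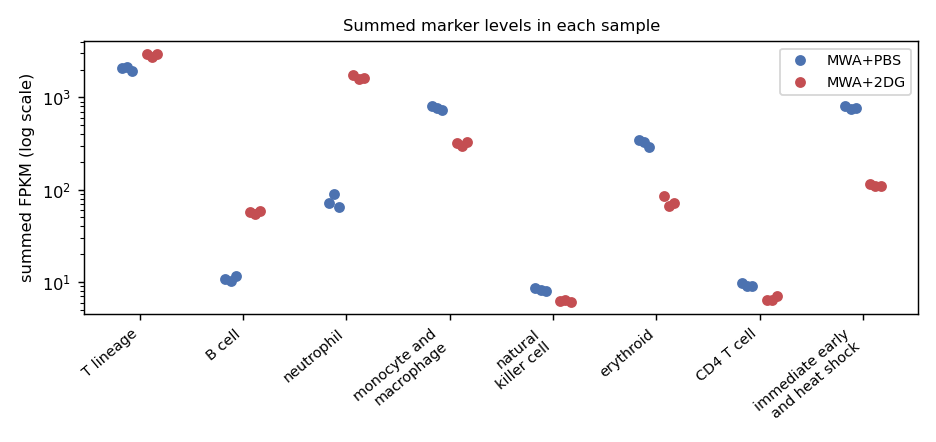
Summed FPKM (log axis) of the T lineage reference and of marker lists for other cell types in each sample, MWA+PBS in blue and MWA+2DG in red. Each point is 1 sample. Neutrophil sums were 64.9 to 89.1 with PBS and 1572 to 1749 with 2DG.

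To place the 9 genes in their pathway, 5 further lists of related genes were described, 74 genes in all, of which 72 passed the expression filter. Of these, 29 were higher, 8 lower and 35 not called, beside 22.3% higher and 17.1% lower among all genes tested. The median log2 fold change was 0.13 against 0.05 over all genes tested. After scaling to the T lineage genes, 4 of the 72 were called higher and 39 lower. Among all 12444 genes tested, 639 were higher and 7462 lower on that scale, so a fall there was not particular to these lists. Of the 74 genes, 4 are also part of that reference, Lck among them. The unscaled values follow. The part of the other cell types, and of the immediate early and heat shock genes, in the levels of these related genes was not tested either.

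Among other phosphatases and their partners, 4 of 15 rose and 3 fell, close to the 22.3% and 17.1% of all genes tested. The median was 0.06. Ptpn4 rose from 5.97, 6.64 and 6.08 FPKM to 10.2, 11.1 and 10.4 (log2 fold change 0.67, limma adjusted p = 0.000198). Ptpn2, which encodes a phosphatase of Jak and Src family kinases, rose from 12.1, 15.5 and 12.9 to 21.13, 18.61 and 21.04 (0.56, limma adjusted p = 0.00344). Ptprj, a receptor-type phosphatase, fell from 7.22, 6.66 and 7.95 to 2.9, 2.44 and 2.74 (-1.16, limma adjusted p = 5.19e-05). Ptpn1 also fell (-0.34, limma adjusted p = 0.0139). Ptpn11 and Ubash3b, close relatives of Ptpn6 and Ubash3a, were not called, at -0.13 and 0.18 (limma adjusted p = 0.128 and 0.0911). Ptpn12 and Ptpn18, which belong to the same PEST-type family as Ptpn22, were called in opposite directions, at -0.32 and 0.36 (limma adjusted p = 0.00789 and 0.0489). Ptpn18 was close to the threshold and low, at 1.86, 2.05 and 1.38 FPKM with PBS and 2.84, 2.62 and 2.18 with 2DG. Ptpn3 was too low to be tested.

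Of 17 inhibitory adaptors, lipid enzymes and kinases, 10 rose and 1 fell, beside 22.3% and 17.1% of all genes tested. The median was 0.26. Cd5, a surface inhibitor of TCR signaling related to Cd6, rose from 23.9, 22.4 and 22.6 FPKM to 35.5, 35.2 and 35.3 (log2 fold change 0.60, limma adjusted p = 9.6e-05). Dok2, an adaptor that dampens Ras signaling, rose by 0.56 (limma adjusted p = 0.000682). Sla, which promotes loss of the TCR complex from the surface, fell by 0.19 (limma adjusted p = 0.0338). Csk, the partner of PEP, was not called at -0.16 (limma adjusted p = 0.11).

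In the ubiquitin system, where Cblb belongs, 0 of 9 tested genes rose and 2 fell with limma, and at an unadjusted p under 0.05 the counts were 1 higher and 2 lower, against 28.1% and 20.5% of all genes tested. The median was -0.05. Tnfaip3, which encodes the ubiquitin-editing enzyme A20, fell from 16.7, 17.5 and 15.7 FPKM to 9.95, 8.57 and 9.5 (log2 fold change -0.77, limma adjusted p = 0.000171). Wwp2, an E3 ligase, fell by 0.19 (limma adjusted p = 0.0317). Cbl, the close relative of Cblb, was not called at 0.08 (limma adjusted p = 0.305), nor was Itch at -0.05 (limma adjusted p = 0.542). Rnf128 was too low to be tested.

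Of 14 partners and relatives of the surface receptors, 6 rose and 2 fell, beside 22.3% and 17.1% of all genes tested. The median was 0.16. Slamf7 rose from 3.71, 3.71 and 3.45 FPKM to 7.42, 7.67 and 8.38 (log2 fold change 0.93, limma adjusted p = 5.49e-05). Ly9, another receptor of the SLAM family, rose by 0.38 (limma adjusted p = 0.00314). Cd244a, a receptor for CD48, fell from 2.77, 3.38 and 2.61 to 1.04, 1.07 and 0.86 (-0.97, limma adjusted p = 0.000338). Cd2ap, which encodes a scaffold protein that binds the tail of CD2, fell by 0.39 (limma adjusted p = 0.0027). The ligands were not called, with 0.19 for Cd48 and -0.10 for Alcam (limma adjusted p = 0.16 and 0.475).

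Of 17 activating proximal signaling genes, 9 rose and 0 fell with limma, beside 22.3% and 17.1% of all genes tested. At an unadjusted p under 0.05 the counts were 9 higher and 1 lower, against 28.1% and 20.5% of all genes tested. The median was 0.17. Rasgrp1, which activates Ras after TCR engagement, rose from 50.2, 50.0 and 52.9 FPKM to 75.4, 81.0 and 79.4 (log2 fold change 0.61, limma adjusted p = 0.000117). Txk, a Tec family kinase, rose by 0.42 (limma adjusted p = 0.00102). Lck, the kinase on which Ptpn22, Ptpn6 and Sh2d2a converge, rose by 0.41 (limma adjusted p = 0.00171). Lck, Ptpn12, Ptpn18 and the related genes given above as not called were named after their values were seen.

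**Figure D5:**
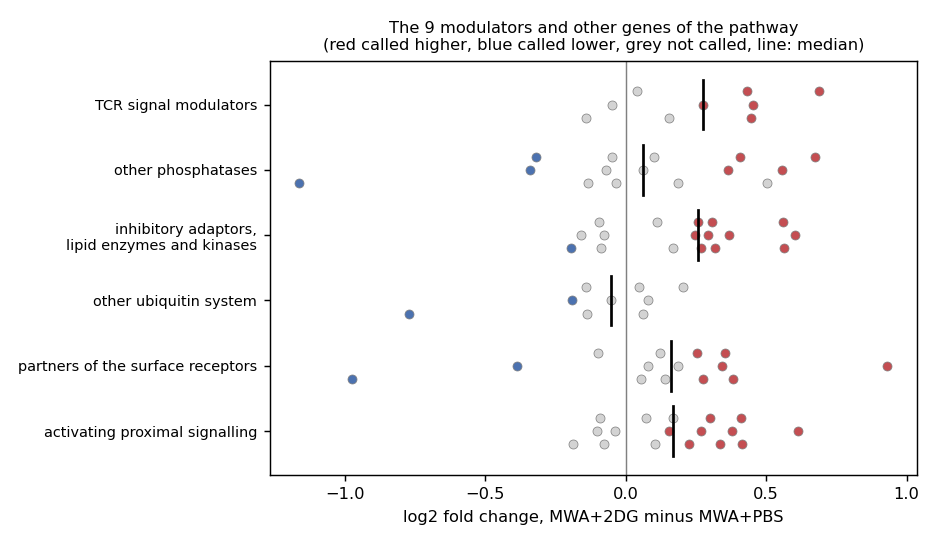
Log2 fold change (MWA+2DG minus MWA+PBS) of the 9 TCR signal modulators and of 5 lists of related genes, values as deposited. Each point is 1 gene, red called higher, blue called lower, grey not called, and vertical bars are list medians. Of the activating proximal signaling genes 9 were called higher and 0 lower, and of the ubiquitin system 0 higher and 2 lower, beside 22.3% higher and 17.1% lower among all genes tested. After scaling to the T lineage genes 4 of the 72 related genes were called higher and 39 lower, beside 639 higher and 7462 lower among all 12444 genes tested.

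The genes whose profile over the 6 samples lay nearest to that of Cd2 were Gimap6, Trav12n-2 and Trim21. Their root mean square distances were 0.0255, 0.0267 and 0.0287 on the log2 scale, against a median of 0.349 over all genes tested. Trav12n-2 belongs to a family of near-identical TCR segments, so its level is uncertain. Nearest to Ptpn6, which had the most negative log2 fold change of the 9, were Ggt1, Gtf2f1 and Nck1, at 0.0232, 0.0262 and 0.0266, against a median of 0.201. Gimap6 read 96.9, 107 and 90.3 FPKM with PBS and 166, 148 and 168 with 2DG. Ggt1 read 8.41, 9.49 and 7.57 with PBS and 7.73, 6.71 and 8.1 with 2DG.

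Promoter windows were available from RefSeq (GRCm38.p6) for 5 of the 9 genes, Ptpn22, Ptpn6, Themis, Cblb and Ubash3a, with 7 windows in all. The 250 bases upstream of a start site are shown for Themis, which rose as deposited but not after scaling to the T lineage genes, and for Ptpn22, which was not called as deposited. Windows were searched on both strands for RUNX (TGTGGT), ETS (CCGGAAG), AP-1 (TGANTCA), STAT (TTCNNNGAA), TCF (CTTTGA) and NFAT (TGGAAAA) letters, and matches are in capitals. The Themis window lies at chr10:28668110-28668359 and the Ptpn22 window at chr3:103860027-103860276, both on the plus strand.
Themis: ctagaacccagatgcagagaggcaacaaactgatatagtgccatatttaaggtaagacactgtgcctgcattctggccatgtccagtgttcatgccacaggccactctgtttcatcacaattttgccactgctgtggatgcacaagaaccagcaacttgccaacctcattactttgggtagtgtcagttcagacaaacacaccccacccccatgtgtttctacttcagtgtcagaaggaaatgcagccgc
Ptpn22: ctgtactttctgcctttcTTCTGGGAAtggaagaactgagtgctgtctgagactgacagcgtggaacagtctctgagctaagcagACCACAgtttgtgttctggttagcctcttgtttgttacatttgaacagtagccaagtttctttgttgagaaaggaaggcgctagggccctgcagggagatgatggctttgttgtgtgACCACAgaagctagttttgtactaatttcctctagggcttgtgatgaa
The Ptpn22 window held 1 STAT match, 232 bases before the start site, and 2 RUNX matches in reverse orientation, 165 and 48 bases before it, and no match overlapped another. The Themis window held 0 matches, and so did the other 5 windows, among them another window of Ptpn22 and those of Ptpn6, Cblb and Ubash3a. The printed Ptpn22 window alone held matches. Over 32851 windows of the same length, RUNX letters occurred in 14%, ETS in 6.91%, AP-1 in 6.75%, STAT in 7.02%, TCF in 13.8% and NFAT in 5.93%. A match describes letters in the window and is not a measured binding site.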

How the data were processed

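RNA-seq of 6 samples, 3 MWA+PBS and 3 MWA+2DG, was analysed from the FPKM values the authors deposited per gene, with 2 decimals. The submitters' processing notes name cutadapt 1.9, HISAT2 2.0.4, UMI-tools, StringTie 1.3.4d and the mm9 genome build, and the study's methods name fastp, HISAT2, StringTie and ballgown. No source used here gives the annotation release. FPKM is relative to the library total, so a transcript taking a larger share lowers the others. In a scan of low values for a common step worth 1 read, the best step lay at the edge of the range searched in all 6 samples, and 21.5% to 23.2% of values were whole multiples of it within 0.1 of a step. Its strength, 0.19 to 0.232, was above that in jittered values in 5 samples, but whole reads were not recovered, so the depth is unknown and no interval for counting error could be made. Each sample had 22414 to 23340 genes above 0. The PBS samples had 12480 to 12515 genes at an FPKM of at least 1, the 2DG samples 12198 to 12282, and mitochondrial genes held 21.4% to 22.8% and 19.4% to 20.7% of the FPKM. The part of these differences in the results was not tested.

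Gene IDs were matched to symbols in GENCODE M21 (28689 of 28773). Genes with a mean FPKM of at least 1 (12444) were tested on log2(FPKM + 1), MWA+2DG against MWA+PBS, with limma 3.58.1 in R 4.3.3 (lmFit, eBayes with a trend, two-sided, no covariates) and Benjamini-Hochberg adjustment over all of them. The pseudocount of 1 understates the change of low genes. Fold changes given as ratios are of mean FPKM. The 9 genes and 17 hand-written lists, 4 of which hold the 9 genes by role, were chosen with earlier results of these data known. Named were the 9 genes, Cd8a, Cd8b1 and Cd3e, the 2 largest changes in each direction among called, non-overlapping genes of each related list, the 3 nearest profiles of the extreme genes, the highest gene of a marker list, and genes said in the text to be chosen later. Phosphatase stretches came from GENCODE M21 coding sequences. The fit was tested on simulated data. Alternatives were other pseudocounts, filters, scalings and variance models, leaving out each sample, and, added after the data were seen, removal of GC content and transcript length trends.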

Additional observations from a re-analysis of the deposited data

How the results depend on the processing

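No paired analysis was possible because the groups share no replicate number. The scaling mattered most. Set to the T lineage genes, 639 genes were higher and 7462 lower (from 2773 and 2134), 1 of the 9 modulators was higher and 4 lower, and 4 related genes were higher and 39 lower (from 29 and 8), with Cblb at -0.37, Ubash3a at -0.23 and Sh2d2a at -0.14, all turned in sign. That scaling moved the median of all genes by -0.36. A mean FPKM of at least 5 left 7313 genes, with 1787 higher and 1164 lower. Cblb, not called, was also at -0.0094 with median ratio scaling and -0.0148 with arrayWeights, and between -0.0199 and 0.0752 with samples left out (-0.0199 without MWA+PBS replicate 2 and -0.0168 without MWA+2DG replicate 5), and the cause was not tested. Ubash3a passed the threshold with arrayWeights (0.17, limma adjusted p = 0.0243) and without GC content and length trends (0.21, limma adjusted p = 0.0218, chosen after seeing the data), against a range of -0.23 to 0.21 over its alternatives. Leaving out each sample gave 5 of the 9 modulators higher and 0 lower every time, 4 to 5 past the study's thresholds, 1989 to 2978 genes higher, 1631 to 2217 lower, and 20 to 32 related genes higher and 5 to 10 lower (5 without MWA+PBS replicate 1 and 5 without MWA+2DG replicate 6). Cd2 kept its direction and its call in all 16 alternatives, and Cd6, Thy1, Themis and Sh2d2a in 15. Depth is unknown, so how far it limits Ubash3a, the lowest of the 9, could not be given.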
